A study of Homo sapiens with 9 samples.

Results

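Glutathione S-transferases were described in uCaco-2 cells through 10 genes, taken from the deposited count table by symbol: GSTA1, GSTA2, GSTA4, GSTP1, GSTK1, GSTO1, GSTM4, MGST1, MGST2 and MGST3. They are 10 of the 60591 symbols listed, and all 10 passed the filter on low counts that kept 15944 symbols. Caco-2 is a human line grown from a colon adenocarcinoma, and uCaco-2 names its dividing cultures before differentiation. The cells received for 24 h 300 μM CoCl2, which stabilizes hypoxia-inducible factors, or 5 μM OD, an oxyquinoline derivative used for the same purpose (labelled Oxy), or neither, and all of them, controls included, were in 0.5% DMSO. Each condition had 3 biological replicates of this single line, and both agents are chemical substitutes for low oxygen. Stranded poly(A) mRNA libraries were read with single 75-nt reads. The comparisons ask how each agent changed the mRNA levels of these enzymes and whether both did so alike.

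Glutathione S-transferases join the tripeptide glutathione to electrophiles such as drug metabolites, aldehydes from oxidized lipids and quinones, which makes them water-soluble for export. The soluble enzymes fall into classes named by Greek letters (alpha, mu, pi, omega), the kappa enzyme sits in mitochondria and peroxisomes, and the microsomal enzymes (MGST) are membrane proteins of an unrelated fold. In the intestine they act on ingested compounds before these reach the blood. Alpha-class enzymes are typical of the normal small intestine and liver, and GSTP1 is abundant in many tumors. Several of the genes carry an antioxidant response element, the DNA site of NRF2 (gene NFE2L2) paired with a small MAF protein.

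Of these 10 genes, the alpha-class genes had the largest falls with OD, GSTK1 and GSTA4 had the largest falls with CoCl2, and GSTP1, the most abundant member, was 1.62-fold higher with CoCl2 and 1.21-fold lower with OD. The rise of GSTP1 with CoCl2 was 0.70 on the log2 scale, and 0.19 when libraries were scaled by size alone. MGST3 was higher than in control cells by 1.43-fold with CoCl2, a value that depended on how libraries were scaled, and by 1.32-fold with OD. A gene is said below to have risen or fallen at an adjusted p under 0.05, and is called when its log2 fold change was also above 1 in size. Levels are CPM, counts scaled to a common total by the TMM factors of edgeR.

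Libraries held 15998136 to 24209427 counts. The TMM factors were 1.11 to 1.12 in control cells, 0.770 to 0.795 with CoCl2 and 1.14 to 1.15 with OD, so that levels in the CoCl2 libraries depend on this scaling more than the others. Of 8 markers of intestinal epithelium, 7 had at least 10 counts in every library and CDX1 was at 0 in all of them. Their summed level was 9995 to 10459 CPM in control cells, 11745 to 12607 with CoCl2 and 9456 to 9978 with OD, while VIL1, the microvillus protein villin, went from 613 ± 18.3 to 112 ± 6.28 CPM with CoCl2 (SD, n = 3). The 4 leukocyte markers summed to 2.29 to 5.49 CPM, the 4 fibroblast markers to 10.6 to 28.5 and the 3 endothelial markers to 2.25 to 3.41. In bulk RNA, fewer cells with a transcript and less of it per cell cannot be told apart.

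GSTA1 and GSTA2 are neighbours on chromosome 6 with near-identical sequences, which bears on how far their counts can be separated. The stretches that lie 250 to 51 bases before their RefSeq starts are shown because both genes fell with both agents, as read on the minus strand of GRCh38.p14 at chr6:52803867-52804066 (GSTA1) and chr6:52763526-52763725 (GSTA2), with the bases that differ in capitals.
GSTA1: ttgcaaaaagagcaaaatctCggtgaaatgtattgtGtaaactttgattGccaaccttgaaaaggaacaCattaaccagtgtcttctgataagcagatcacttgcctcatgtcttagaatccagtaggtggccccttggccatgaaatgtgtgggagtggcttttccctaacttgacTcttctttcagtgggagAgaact
GSTA2: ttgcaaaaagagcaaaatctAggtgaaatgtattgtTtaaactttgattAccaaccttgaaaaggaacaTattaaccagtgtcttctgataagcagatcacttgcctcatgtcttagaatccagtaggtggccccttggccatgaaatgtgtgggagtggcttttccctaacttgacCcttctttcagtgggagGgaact
They differ at 6 of 200 positions, written with the GSTA1 base first and counted from 1 at the 5′ end as C21A, G37T, G50A, C70T, T178C and A195G, which is an identity of 97.0%. In the messages, 153 of the 1144 stretches of 75 nt in the canonical GSTA1 transcript (13.4%) also occur in GSTA2. GSTM4 shares 9.4% of its 75-nt stretches with other genes, mainly GSTM1 (7.9%) and GSTM2 (4.5%), GSTO1 shares 0.8% with the pseudogene GSTO3P, and the other members share none. How the authors counted reads that fit several genes is not given in the sources used here, so GSTA1, GSTA2 and GSTM4 are uncertain to that extent.

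RefSeq promoter windows, from 250 bases before to 50 after a start, were found for 9 of the 10 members, with 3 windows for MGST1 and none for MGST2. They were searched on both strands for TGACNNNGC, the core of the antioxidant response element, and for ACGTG, the core of the hypoxia response element. TGACNNNGC occurs in 13.3% and ACGTG in 21.4% of all 35116 windows of this length. The matches of TGACNNNGC before the RefSeq start of a window are shown with their neighbouring bases and the match in capitals, since these members moved in different directions with CoCl2. GCLM, a glutathione synthesis gene that is not a member, stands beside them with its match on the opposite strand.
GSTP1: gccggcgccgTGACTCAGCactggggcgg
GSTO1, distal: ggcggagggaTGACTGAGCatttataact
GSTO1, proximal: cgagatgcttTGACACAGCcccttaagat
GSTA4: ccgggaccgcTGACCTGGCgctttgtgcg
GCLM: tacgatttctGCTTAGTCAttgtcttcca
The stretch of GSTP1 lies at chr11:67583736-67583764 on the plus strand, those of GSTO1 at chr10:104254656-104254684 and chr10:104254721-104254749 on the plus strand, that of GSTA4 at chr6:52995275-52995303 on the minus strand and that of GCLM at chr1:93909446-93909474 on the minus strand (GRCh38.p14). Counted from the RefSeq transcript start of each window, which lies inside the GENCODE span of the gene, the GSTP1 match starts 66 bases before it, those of GSTO1 start 226 and 161 bases before it, and that of GSTA4 starts 9 bases before it. MGST1 had ACGTG in a pair of its windows, which cover the same site, and TGACNNNGC after the start of the remaining window. The windows of GSTA1, GSTA2, GSTK1, GSTM4 and MGST3 held neither string of letters. A match is a string of letters and was not measured as a bound site.

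Per kilobase of transcript, the scale on which genes can be set side by side, GSTP1 led in every condition. In control cells its level was 1464 ± 84.7 CPM per kb (SD, n = 3), followed by GSTO1 at 196 ± 7.97 and MGST3 at 87.4 ± 3.26. MGST1 (73.4 ± 3.43) and GSTK1 (72.2 ± 2.27) came next with libraries that overlapped, then MGST2 at 53.3 ± 1.46. The alpha and mu genes were far lower, with GSTA2 at 15.4 ± 0.942, GSTA4 at 13.5 ± 1.21 and GSTM4 at 11.99 ± 0.785, of which GSTA4 and GSTM4 overlapped, and GSTA1 was last at 2.60 ± 0.639. GSTP1 alone made up 73.6% of the family's summed level per kb in control libraries, 81.3% in those with CoCl2 and 73.3% in those with OD.

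**Figure D1:**
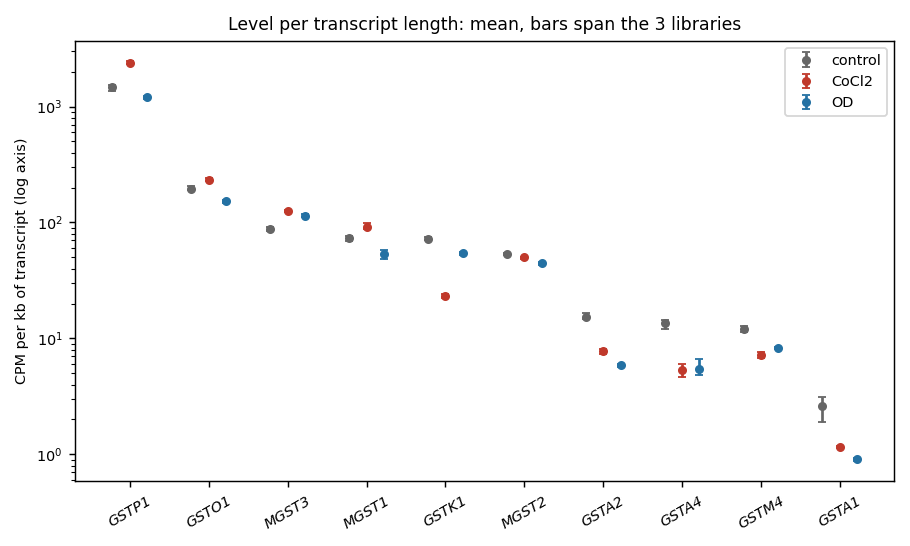
Level of each of the 10 genes per kilobase of its canonical transcript (log axis, CPM per kb), by condition, with the mean as a point and a bar from the lowest to the highest of 3 libraries. GSTP1 lies between 1161 and 2486 CPM per kb in all libraries and GSTA1 between 0.875 and 3.13.

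The order below the top changed with treatment. GSTK1 stood above MGST2 in control cells and with OD, and below it with CoCl2, at 23.4 ± 1.02 against 50.03 ± 1.10 CPM per kb. With OD, GSTK1 (54.1 ± 1.59) and MGST1 (53.2 ± 4.49) overlapped, and GSTM4 (8.31 ± 0.188) stood above GSTA2 (5.86 ± 0.156) and GSTA4 (5.48 ± 1.05), which overlapped each other. With CoCl2, GSTA2 (7.74 ± 0.357) and GSTM4 (7.22 ± 0.411) overlapped, above GSTA4 at 5.29 ± 0.704. Summed over the 10 genes, the level was 1504 to 1624 CPM in control cells, 2232 to 2339 with CoCl2 and 1274 to 1345 with OD. On the same scale without TMM factors, the sums were 1676 to 1809, 1716 to 1843 and 1460 to 1535. The libraries of CoCl2 and control therefore overlap on that scale, and those of OD stand below both on each scale. With TMM factors but without GSTP1, the sum per kb was 518 to 541 in control cells and 533 to 557 with CoCl2, which overlap. With OD it was 433 to 444.

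Against control cells, CoCl2 gave 3 called genes of 10, all lower (GSTA1, GSTA4 and GSTK1), where 43.2% of all tested genes were called, 19.9% higher and 23.4% lower. By the adjusted p alone, 4 members rose (GSTP1, GSTO1, MGST1 and MGST3, of which GSTO1 and MGST1 turned lower when libraries were scaled by size alone), 5 fell and MGST2 did neither. With upper-quartile factors 4 rose and 6 fell, and with library size alone 1 rose and 8 fell, MGST2 among them. The median log2 fold change of all tested genes also moved under these settings, to -0.15 and -0.55. The shares of all genes past the test were not counted there. By the adjusted p alone with TMM factors, the share past the test was 83.2% over all tested genes (40.4% higher, 42.8% lower). The libraries of CoCl2 and control did not overlap for any of the 10 members, nor for 83.4% of all tested genes. The median log2 fold change was -0.41 over the members and -0.05 over all tested genes. With TMM factors, shares of this kind are near those of all genes, so they say nothing particular about the family.

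OD also gave 3 called members, all lower (GSTA1, GSTA2 and GSTA4), where 13.3% of all tested genes were called, 9.09% higher and 4.16% lower. By the adjusted p alone 9 members fell and MGST3 rose, against 65.6% of all tested genes (32.3% higher, 33.3% lower). Control and OD libraries did not overlap for any member, nor for 68% of all tested genes. The median log2 fold change was -0.44 over the members and -0.01 over all tested genes. Both comparisons use the same 3 control libraries, so the values of the 2 agents are given side by side.

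**Figure D2:**
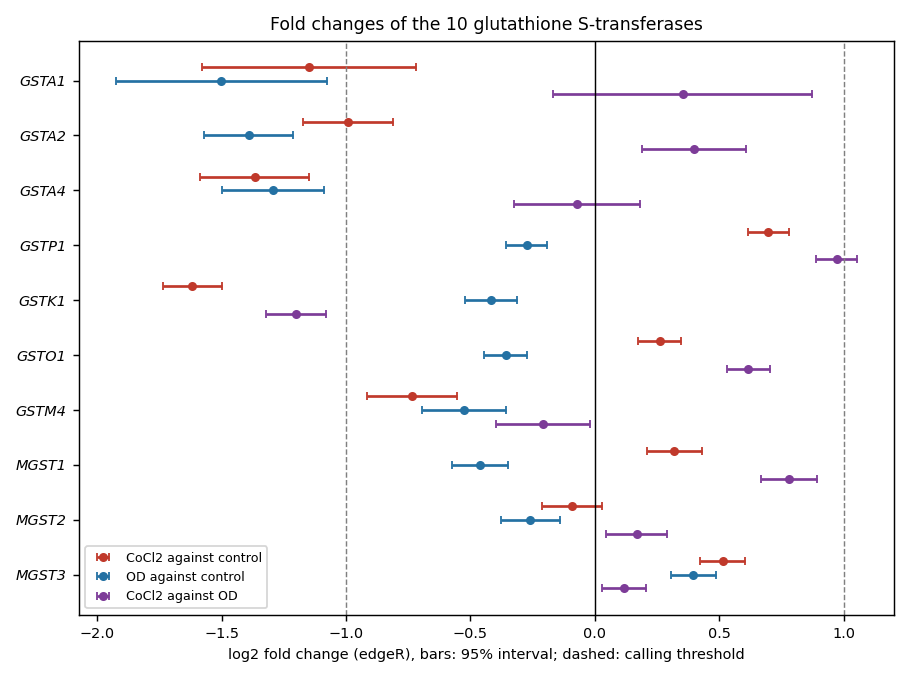
log2 fold changes of the 10 genes from edgeR with 95% intervals, with CoCl2 and OD each set against control and against each other, and dashed lines at the calling threshold of 1 in size. With OD the 3 alpha genes lie beyond -1 and MGST3 alone lies above 0, while with CoCl2 GSTP1, GSTO1, MGST1 and MGST3 lie above 0, of which GSTO1 and MGST1 fall below it when libraries are scaled by size alone.

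GSTA1 and GSTA2 encode alpha-class enzymes with strong activity toward lipid hydroperoxides. GSTA1 (ENSG00000243955.6, GRCh38 chr6:52791371-52803860, minus strand) had 3.39, 2.30 and 3.81 CPM in the control libraries, 1.43, 1.39 and 1.42 with CoCl2 and 1.14, 1.07 and 1.12 with OD. These rest on 47 to 68 counts a library in control cells, 18 to 27 with CoCl2 and 21 to 25 with OD. All 6 treated libraries were below the lowest control library, and the OD libraries were below those of CoCl2. The log2 fold change was -1.15 with CoCl2 (SE 0.215, adjusted p = 2.43e-06, edgeR quasi-likelihood test) and -1.50 with OD (SE 0.211, adjusted p = 6.27e-09), falls of 2.22-fold and 2.83-fold.

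GSTA2 (ENSG00000244067.3, chr6:52750087-52763475, minus strand) was more abundant, with 20.1, 18.1 and 18.1 CPM in control cells, 9.89, 9.44 and 9.02 with CoCl2 and 6.95, 7.32 and 7.19 with OD. The 3 groups were apart, and control was highest. It fell by 0.99 on the log2 scale with CoCl2 (SE 0.0905, adjusted p = 1.23e-15), just short of the calling threshold, and by 1.39 with OD (SE 0.0898, adjusted p = 1.49e-21). Without control replicate 2 or 3, or CoCl2 replicate 1, the value with CoCl2 was -1.02 to -1.03 and passed that threshold. Other settings that kept the calling rule passed it too, as given in the closing section. The paper, which used DESeq2, has GSTA2 in its set of genes changed alike by both agents in undifferentiated and differentiated cells. Counts of GSTA1 were 16.9 ± 4.18% of those of GSTA2 in the control libraries, 15.0 ± 0.644% in the CoCl2 libraries and 15.5 ± 0.900% in the OD libraries (SD, n = 3). Where the counts of both genes were added, which no split of shared reads between them can alter, the sum fell by 1.02 with CoCl2 (SE 0.0860, adjusted p = 6.34e-17) and by 1.41 with OD (SE 0.0853, adjusted p = 8.02e-23).

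GSTA4 (ENSG00000170899.11, chr6:52977948-52995304, minus strand) lies on the same chromosome and encodes the alpha enzyme that prefers hydroxynonenal, an aldehyde from oxidized lipids. Its level was 17.5, 17.7 and 15.0 CPM in control cells, 5.79, 7.51 and 6.40 with CoCl2 and 6.13, 8.30 and 5.96 with OD. Control libraries stood apart from all 6 treated libraries, and the treated groups overlapped. It fell by 1.37 with CoCl2 (SE 0.1101, adjusted p = 1.68e-17) and by 1.29 with OD (SE 0.102, adjusted p = 2.67e-17), or 2.58-fold and 2.45-fold. None of its 75-nt stretches occurs in another gene.

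**Figure D3:**
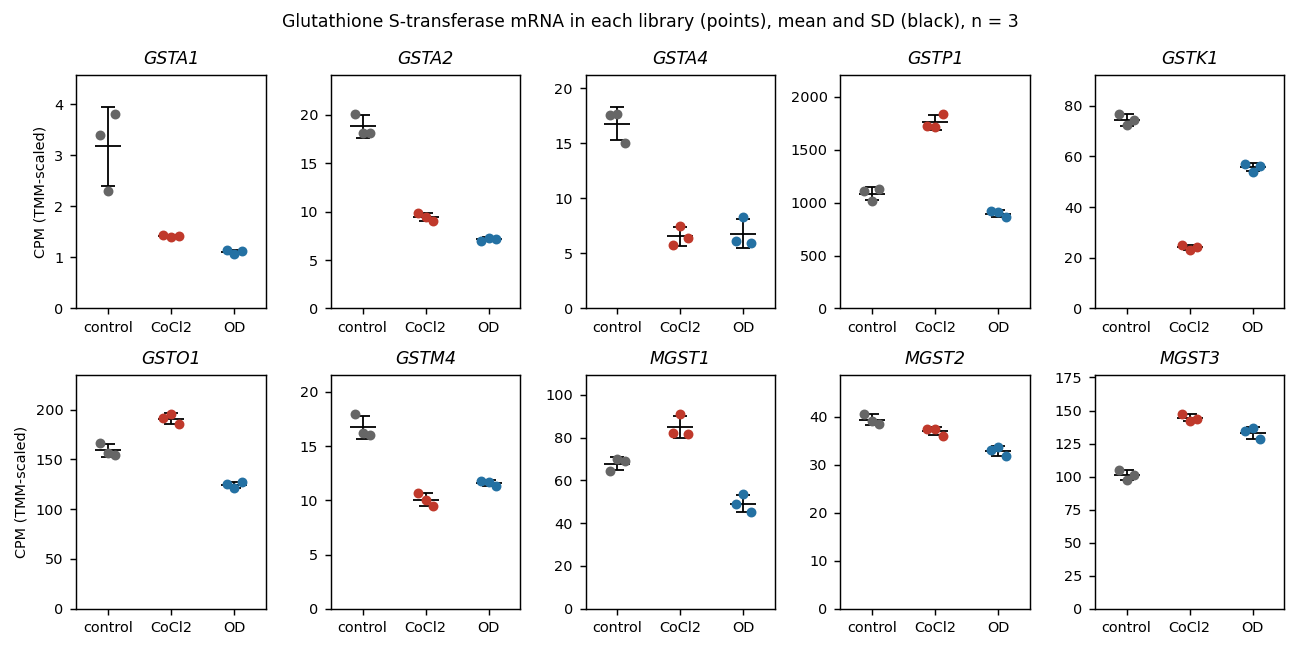
Level of each of the 10 genes in every library (points; CPM, TMM-scaled, each panel from 0), with the mean and the SD of 3 libraries in black. For GSTA1, GSTA2 and GSTA4 all treated libraries lie below all control libraries, and GSTK1 drops most with CoCl2, to 23.1 to 25.1 CPM.

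GSTP1 (ENSG00000084207.18, chr11:67583742-67586656, plus strand) encodes the pi-class enzyme, which also binds the stress kinase JNK. It had 1109, 1014 and 1133 CPM in control cells, 1721, 1716 and 1842 with CoCl2 and 921, 910 and 860 with OD, on 16155 to 35126 counts a library. All CoCl2 libraries were above and all OD libraries below the control range. Its log2 fold change was 0.70 with CoCl2 (SE 0.0413, adjusted p = 5.08e-24) and -0.27 with OD (SE 0.0413, adjusted p = 3.38e-08). Scaled by library size alone, the rise with CoCl2 was 0.19 (adjusted p = 1.63e-05).

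GSTO1 (ENSG00000148834.13, chr10:104235356-104267459, plus strand) encodes the omega enzyme, which reduces dehydroascorbate and mixed disulfides more than it conjugates. Control libraries had 167, 157 and 155 CPM, those with CoCl2 had 192, 196 and 186 and those with OD had 125, 121 and 127. The 3 groups were apart, with CoCl2 on top and OD at the bottom. The log2 fold change was 0.26 with CoCl2 (SE 0.0431, adjusted p = 1.85e-07), which turned to -0.25 when libraries were scaled by size alone, and -0.36 with OD (SE 0.0434, adjusted p = 8.62e-11).

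GSTK1 (ENSG00000197448.14, chr7:143244093-143270854, plus strand), the kappa enzyme of mitochondria and peroxisomes, had 76.9, 72.3 and 74.3 CPM in control cells, 25.1, 23.1 and 24.4 with CoCl2 and 57.2, 54.0 and 56.2 with OD. No library of a group overlapped another group, and CoCl2 was lowest. It fell by 1.62 with CoCl2 (SE 0.0598, adjusted p = 1.50e-34), or 3.07-fold, the largest fall of any member with either agent. With OD it fell by 0.42 (SE 0.0517, adjusted p = 1.64e-10), or 1.33-fold.

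GSTM4 (ENSG00000168765.19, chr1:109656099-109665496, plus strand), a mu-class enzyme, had 18.0, 16.2 and 15.99 CPM in control cells, 10.6, 10.1 and 9.49 with CoCl2 and 11.8, 11.7 and 11.3 with OD. Control was highest without overlap. It fell by 0.73 with CoCl2 (SE 0.0910, adjusted p = 7.04e-11) and by 0.53 with OD (SE 0.0839, adjusted p = 1.40e-07), within the threshold for a call.

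MGST1 (ENSG00000008394.13, chr12:16347142-16609259, plus strand) encodes the microsomal enzyme of the endoplasmic reticulum and outer mitochondrial membrane. Its levels were 64.2, 70.2 and 69.2 CPM in control cells, 82.0, 91.1 and 81.7 with CoCl2 and 49.0, 53.4 and 45.1 with OD, so that the order of the groups was that of GSTP1 and GSTO1. The log2 fold change was 0.32 with CoCl2 (SE 0.0550, adjusted p = 4.32e-07), which turned to -0.19 when libraries were scaled by size alone, and -0.46 with OD (SE 0.0563, adjusted p = 1.03e-10).

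MGST2 (ENSG00000085871.9, chr4:139665768-139740745, plus strand), which can make leukotriene C4, was the member that did not pass the test with CoCl2. Its levels were 40.6, 39.1 and 38.5 CPM in control cells, 37.4, 37.5 and 36.1 with CoCl2 and 33.2, 33.7 and 31.7 with OD. With CoCl2 the log2 fold change was -0.09 (95% interval -0.21 to 0.03, adjusted p = 0.150; -0.60 with library size alone, adjusted p = 1.56e-12), and with OD it fell by 0.26 (SE 0.0590, adjusted p = 0.000101). Of its exon bases, 7.9% lie over MAML3 on the opposite strand.

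MGST3 (ENSG00000143198.13, chr1:165631213-165661796, plus strand), a microsomal enzyme with peroxidase activity, had 105, 97.5 and 101 CPM in control cells, 147, 142 and 144 with CoCl2 and 134, 137 and 128 with OD. All treated libraries were above all control libraries. It rose by 0.51 with CoCl2 (SE 0.0455, adjusted p = 4.05e-16) and by 0.40 with OD (SE 0.0449, adjusted p = 1.02e-11). Under scaling by library size alone the value with CoCl2 was 0.01 (adjusted p = 0.873), so its rise with CoCl2 depends on the scaling, while that with OD was 0.37 to 0.44 under all alternatives tried.

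The choice of scaling moved the median log2 fold change of all tested genes with CoCl2 from -0.05 with TMM factors to 0.0012 with RLE factors, -0.15 with upper-quartile factors and -0.55 with library size alone. A scaling shifts all genes and this median alike, and relative to the median GSTP1, GSTO1, MGST1 and MGST3 stood above and the alpha genes, GSTK1 and GSTM4 below. With OD the median lay between -0.01 and 0.03 under all 4.

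**Figure D4:**
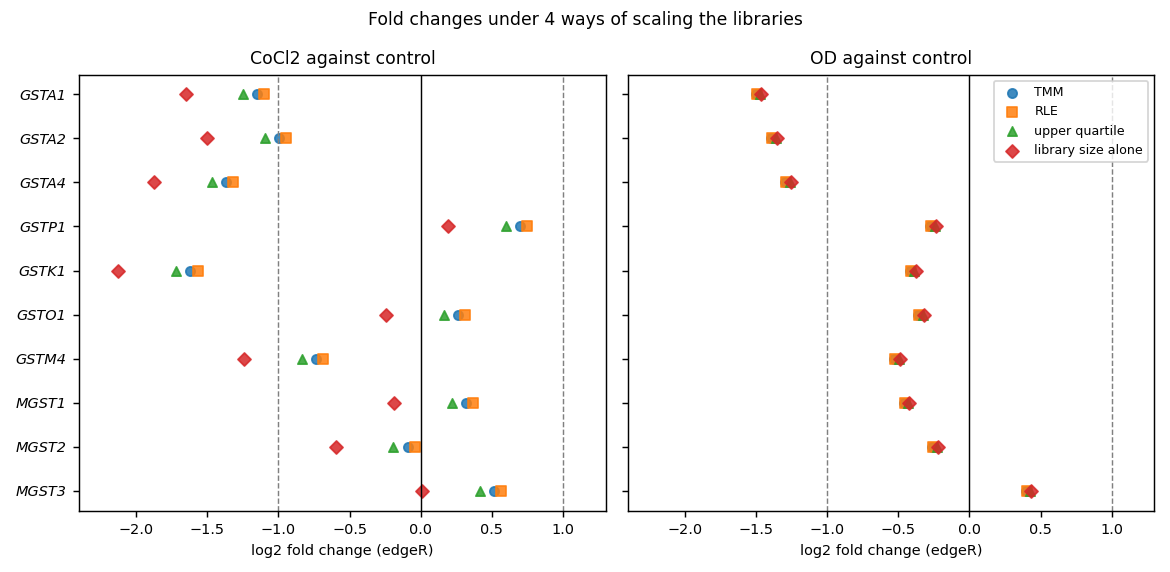
log2 fold changes of the 10 genes against control under 4 scalings of the libraries (TMM, RLE, upper quartile, library size alone), for CoCl2 on the left and OD on the right. With library size alone the CoCl2 values shift left, to -0.25 for GSTO1, -0.19 for MGST1 and 0.01 for MGST3, and the OD values hardly move.

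Set directly against OD, CoCl2 left 1 member called, GSTK1, which was lower by 1.20 on the log2 scale (SE 0.0609, adjusted p = 2.43e-27), where 41.3% of all tested genes were called (17.5% higher, 23.8% lower). By the adjusted p alone with TMM factors 6 members were higher with CoCl2 and 2 lower, against 83.5% of all tested genes (40.2% higher, 43.2% lower). With library size alone 2 members were higher and 5 lower, and the share of all tested genes was not counted at that setting. The libraries of the agents did not overlap for 9 members, GSTA4 being the exception, nor for 83.8% of all tested genes. With TMM factors the median was 0.26 over the members and -0.05 over all tested genes. With library size alone the median over all tested genes was -0.60. GSTP1 was higher with CoCl2 by 0.97 (SE 0.0415, adjusted p = 3.26e-31), MGST1 by 0.78 (SE 0.0562, adjusted p = 5.88e-20) and GSTO1 by 0.62 (SE 0.0435, adjusted p = 2.08e-20), and with library size alone these values were 0.43, 0.24 and 0.07 (adjusted p = 0.111 for GSTO1).

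Among the alpha genes, GSTA2 was higher with CoCl2 by 0.40 (SE 0.105, adjusted p = 0.000478), and the sum of GSTA1 and GSTA2 by 0.39 (SE 0.0993, adjusted p = 0.000292), but GSTA2 was at -0.15 with library size alone. For GSTA1 the difference was 0.35 with a 95% interval of -0.17 to 0.87 (adjusted p = 0.200), and for GSTA4 it was -0.07 with an interval of -0.33 to 0.18 (adjusted p = 0.591), so that a difference was not detectable in either with TMM factors. With library size alone GSTA4 was lower with CoCl2 than with OD, at -0.62 (adjusted p = 3.33e-05). The remaining differences were 0.17 for MGST2 (adjusted p = 0.00990), 0.12 for MGST3 (adjusted p = 0.0124) and -0.21 for GSTM4 (adjusted p = 0.0385), which with library size alone were -0.38, -0.43 and -0.76.

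The other genes of the glutathione S-transferase and MAPEG families were tested in part. Of 17 listed, 16 were in the table and 8 passed the filter, while GSTA3, GSTA5, GSTM1, GSTM2, GSTM5, GSTT2, HPGDS and LTC4S did not. With CoCl2, 2 of the 8 were called higher and 1 lower, and with OD 1 was called higher. GSTO2, the second omega gene, had 2 to 4 counts a library in control cells and 12 to 20 with CoCl2, a log2 fold change of 2.43 (SE 0.440, adjusted p = 1.27e-06). ALOX5AP, which presents arachidonate to leukotriene synthesis, had 4 to 10 counts in control cells and rose by 1.19 with CoCl2 (adjusted p = 0.00304) and by 0.89 with OD (adjusted p = 0.0307). GSTT2B fell by 1.78 with CoCl2 (adjusted p = 1.19e-05), from 19 to 28 counts to 2 to 8, though 85.5% of its 75-nt stretches also occur in GSTT2.

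PTGES, the microsomal prostaglandin E synthase, went from 2.96 ± 0.278 CPM in control cells to 15.0 ± 0.880 with OD and 2.26 ± 0.149 with CoCl2 (SD, n = 3). It rose by 2.34 with OD (SE 0.116, adjusted p = 4.20e-27) and fell by 0.38 with CoCl2 (SE 0.179, adjusted p = 0.0441). GSTM3, a mu-class gene, fell by 0.94 with OD (adjusted p = 2.32e-13) and by 0.36 with CoCl2 (adjusted p = 0.000500). GSTZ1, the zeta enzyme of tyrosine breakdown, fell by 0.70 with CoCl2 (adjusted p = 2.43e-08) and GSTCD by 0.41 (adjusted p = 4.30e-06), and neither passed the test with OD, at -0.14 and 0.13. GSTT4 passed it in neither comparison.

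Genes of glutathione synthesis and breakdown had log2 fold changes from -1.96 to 3.55 with CoCl2, against -1.62 to 0.70 for the transferases. Of 13 listed 10 were tested, of which 4 were called higher and 3 lower with CoCl2, and 2 higher and 1 lower with OD. The shares over all tested genes were 19.9% higher and 23.4% lower with CoCl2, and 9.09% and 4.16% with OD. GCLM, the modifier subunit of glutamate-cysteine ligase, went from 20.0 ± 0.721 CPM to 234 ± 3.64 with CoCl2 and 30.0 ± 1.48 with OD, log2 fold changes of 3.55 (SE 0.0552, adjusted p = 4.35e-55) and 0.58 (SE 0.0637, adjusted p = 3.18e-12). GCLC, the catalytic subunit, rose by 1.96 and 0.23. GSS, which adds the glycine, instead fell from 155 ± 5.38 to 45.0 ± 2.66 CPM with CoCl2, by 1.78 (SE 0.0514, adjusted p = 2.76e-40), and by 0.32 with OD. The cystine transporter SLC7A11 rose by 3.43 with CoCl2 and 2.12 with OD, and its partner SLC3A2 by 2.04 and 0.17.

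Among the genes that break glutathione down or recover its parts, OPLAH, which opens oxoproline, fell by 1.96 with CoCl2 and CHAC2 by 1.68, while CHAC2 fell by 1.31 with OD. CHAC1, a glutathione-degrading enzyme of the stress response, rose by 1.90 with OD and by 0.25 with CoCl2, a value that turned to -0.26 with library size alone. All of these values passed an adjusted p of 0.05 in edgeR's test.

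All 14 glutathione redox genes were tested, with 4 called higher and 3 lower with CoCl2, and 2 higher and none lower with OD. GSR, which regenerates glutathione from its disulfide, went from 103 ± 1.57 to 461 ± 20.4 CPM with CoCl2 and to 88.4 ± 1.72 with OD, at 2.17 (SE 0.0431, adjusted p = 3.38e-49) and -0.22 (SE 0.0451, adjusted p = 2.51e-05). The peroxidases GPX2 and GPX3 rose with both agents, by 2.42 and 2.00 with CoCl2 and by 1.09 and 0.91 with OD. GLRX, a glutaredoxin, rose by 1.77 and 0.62. GPX8, a peroxidase of the endoplasmic reticulum, fell by 1.25 with CoCl2 and rose by 1.97 with OD. GPX7 fell by 1.26 and HAGH, of the glyoxalase pathway, by 1.54 with CoCl2.

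Conjugates leave the cell through ABCC transporters and are trimmed to mercapturates. Of 15 such genes 13 were tested, with 3 called higher and 4 lower with CoCl2 and 1 higher with OD. Over all tested genes the shares called were 19.9% higher and 23.4% lower with CoCl2, and 9.09% higher with OD. The apical export pump ABCC2 rose by 1.56 with CoCl2 and 0.35 with OD, and ABCC5 by 2.04 and 1.21. ABCC3, the basolateral pump, fell by 1.31 with CoCl2 (adjusted p = 8.83e-23), and ANPEP, a brush-border peptidase, fell by 1.36 with CoCl2 and rose by 0.75 with OD. ACY1 fell by 1.40 with CoCl2 (adjusted p = 0.00514), on 10 to 13 counts a library in control cells and 3 to 4 with CoCl2. ACY3 had 7 to 16 counts a library in control cells and 0 to 3 with CoCl2.

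**Figure D5:**
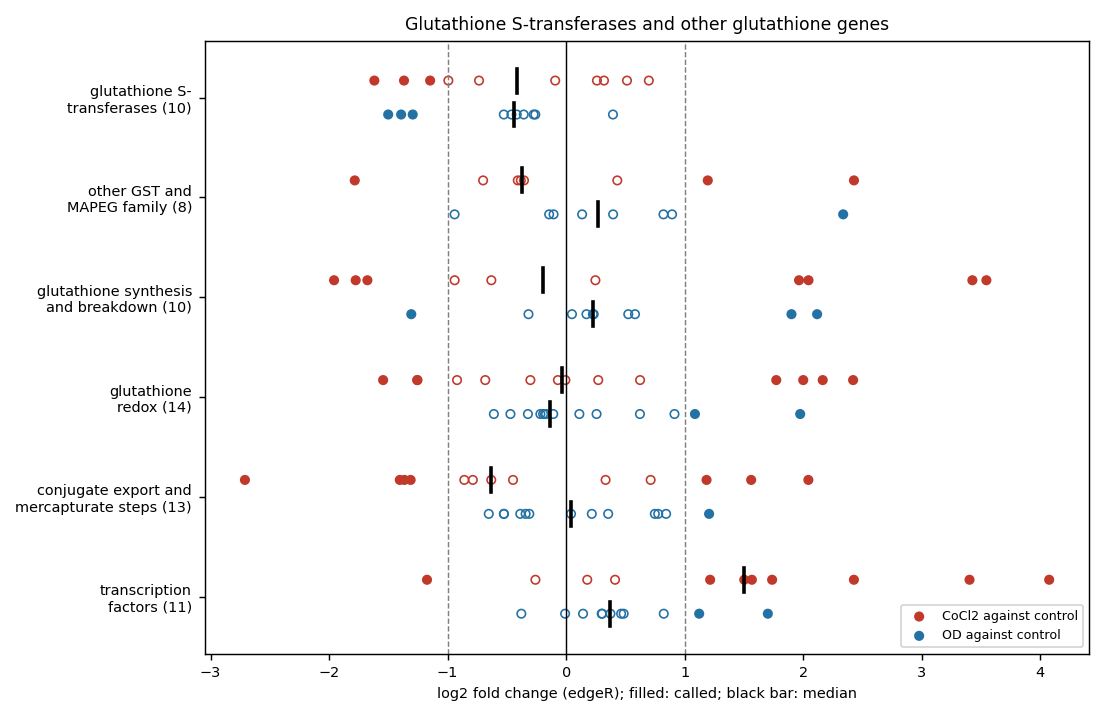
log2 fold changes of the tested genes of each glutathione list against control, for CoCl2 and OD, 1 point a gene, filled where called, with the median of each list as a black line. The transferases lie between -1.62 and 0.70 with CoCl2, and the other glutathione genes between -2.71 and 3.55.

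All 11 transcription factors listed for the antioxidant response element and for alpha-class promoters were tested, and 7 were called higher with CoCl2 and 2 with OD. Among all tested genes, 19.9% were called higher with CoCl2 and 9.09% with OD. NFE2L2 rose by 1.57 with CoCl2 (SE 0.0430, adjusted p = 1.46e-41) and by 0.37 with OD, and its inhibitor KEAP1 by 1.50 and 0.14. The small MAF genes MAFF, MAFG and MAFK rose by 4.08, 3.40 and 1.74 with CoCl2 and by 1.70, 0.30 and 0.49 with OD. BACH1, a repressor at these elements, rose by 2.43 and 0.82, and NFE2L1 by 1.22 and 1.12.

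Over the 45 tested genes of these lists without the transcription factors, 13 were called higher and 11 lower with CoCl2, and 6 higher and 1 lower with OD, with medians of -0.36 and 0.13. The lists were chosen with results of these data known, and the shares called among all tested genes are those given above.

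The genes closest in pattern to each member were found by the Euclidean distance of centred log2 values over the 9 libraries. Values were the log2 of CPM plus 0.5, and the search covered the 9030 genes that averaged 10 CPM or more. MGST3 had the closest match, ITM2C at a distance of 0.0628. For GSTP1 it was the splicing factor SNRNP70 (0.116), for MGST2 the ubiquitin ligase scaffold CUL1 (0.115), for GSTM4 the basement membrane gene NID2 (0.119), for MGST1 the export receptor XPO4 (0.122), for GSTO1 the ribosome assembly factor NSA2 (0.127) and for GSTK1 the mitochondrial ribosomal gene MRPL40 (0.137). TROAP was closest to both GSTA1 (0.398) and GSTA2 (0.232), and the chaperonin gene HSPE1 to GSTA4 (0.448). GSTA1 itself had only 1.07 to 3.81 CPM, where the added 0.5 shrinks differences. Its log2 fold changes with CoCl2 and OD were -1.15 and -1.50, against -0.95 and -1.25 for TROAP. Among the members themselves GSTO1 and MGST1 were the closest pair (0.361), followed by GSTA1 and GSTA2 (0.504), and the member closest to GSTK1 was GSTM4 at 1.35.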

How the data were processed

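uCaco-2 libraries of 3 conditions, 3 replicates each, were analysed. The authors trimmed adapters with cutadapt 2.10, checked quality with FastQC 0.11.9, mapped reads with STAR 2.7.5b on GRCh38.p13 and deposited raw counts per gene symbol, without normalization. The counting tool, its strand setting and what it did with multi-mapping reads are not given in the sources used here. RNA integrity numbers were at least 9.7. Differentiated cells were not analysed here.

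From the counts, edgeR 4.0.16 (R 4.3.3) with TMM factors and its expression filter gave a robust quasi-likelihood fit over all 9 libraries with 1 mean per condition, and p-values were adjusted by Benjamini-Hochberg over 15944 genes. The study's thresholds were used for calls (adjusted p under 0.05, absolute log2 fold change over 1). Replicates of each condition differed beyond sampling noise (chi-square per degree of freedom 1.82 to 3.32), so all were kept. Total counts of 15998136 to 24209427 a library gave standard errors from 0.0413 (GSTP1) to 0.215 (GSTA1) with CoCl2. Gene positions came from GENCODE release 44, promoter windows from RefSeq (GRCh38.p14).

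The members, the other gene lists and the motifs were chosen with earlier results of these data known. Named genes were the members, all tested genes of the wider family, GCLC, GCLM, GSS and NFE2L2, up to 4 called genes per direction and comparison in each other list, and the nearest patterns. Alternatives were other scalings (RLE, upper quartile, library size alone), other filters (none, or 10 counts or more in each library), DESeq2 1.42.0 on 9 or 6 libraries, edgeR on 6, a block for the replicate number, omission of each library, glmTreat, a rule on adjusted p without fold change, and thinning to the least deep library. The fit was tested on simulated data. The values of 2 listed genes are not reported here.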

Additional observations from a re-analysis of the deposited data

How the results depend on the processing

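Of the 30 log2 fold changes of the 10 transferases, 23 kept their direction under every alternative and 7 did not. With library size alone, values against control with CoCl2 turned to -0.25 for GSTO1 and -0.19 for MGST1, and against OD to -0.19 for GSTA1, -0.15 for GSTA2, -0.38 for MGST2 and -0.43 for MGST3. MGST3 against OD was also -0.013 with upper-quartile factors, and GSTA4 against OD ranged from -0.16 to 0.095 when single libraries were left out (0.0097 without CoCl2 replicate 1) and was -0.62 with library size alone. GSTA2 with CoCl2 passed the calling threshold under 10 settings that kept the calling rule, at -1.01 to -1.50, GSTM4 did so with library size alone (-1.24), and GSTA1 with CoCl2 was no longer called by glmTreat.

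Called transferases lower with CoCl2 were 5 with library size alone and 5 by the adjusted p alone, with 4 higher by the latter. With OD the adjusted p alone gave 1 higher and 9 lower. Between the agents RLE factors gave 1 higher (GSTP1, at 1.02), and the adjusted p alone 6 higher and 2 lower. Leaving out each library in turn gave 3 to 4 lower with CoCl2, 3 lower with OD and 1 lower between the agents. For the 45 other glutathione genes, those lower with CoCl2 were 19 with library size alone, 7 with at least 10 counts in every library and 24 by the adjusted p alone. With OD the adjusted p alone gave 20 higher and 14 lower, glmTreat gave 0 lower, and leaving out each library gave 1 to 2 lower (2 without control replicate 2). Between the agents library size alone gave 5 higher, and the adjusted p alone 21 lower. With library size alone the median of all tested genes was -0.55 for CoCl2 against control and -0.60 for CoCl2 against OD. The shares of all tested genes called at that setting were not counted. Where settings changed a count, the cause was not tested, except that the adjusted p alone and glmTreat alter the calling rule itself.

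Of the other named genes, library size alone turned the values with CoCl2 of GSTT4 (-0.069), CHAC1 (-0.26), NSA2 (-0.31), DAZAP1 (-0.22), XPO4 (-0.21) and NFYA (-0.18). Against OD it turned those of GSTT4 (-0.0024), ALOX5AP (-0.24), NFE2L1 (-0.45), TROAP (-0.24), CTU2 (-0.39), LYAR (-0.25), HSPE1 (-0.41), CUL1 (-0.40), ATP5F1B (-0.37), ITM2C (-0.43) and ARFGAP1 (-0.49). Upper-quartile factors turned the values against OD of NFE2L1 (-0.039), ITM2C (-0.013) and ARFGAP1 (-0.072), the last also without a count filter (-0.0071), and RLE factors that of ATP5F1B with CoCl2 (0.0037). With OD, GSTT4 was 0.087 without control replicate 1, 0.10 without control replicate 3 and 0.057 without Oxy replicate 3, and ACY3 ranged from -0.56 to 0.066, the latter without control replicate 3.

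Same-numbered libraries of different conditions had correlations of -0.018 to 0.067 in their deviations from the group means. A library correlated best with its own number in 9 of 18 cases. Each case had 3 candidates and the cases share libraries, so this count cannot exclude a pairing by number. The numbers were not taken to pair the samples in the main fit. With the replicate number as a block, 3 transferases were called lower with CoCl2 and 3 with OD, and no call of a member changed. Depth limits GSTA1 most, with 18 to 68 counts a library.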
